A study of Homo sapiens with 9 samples.

Results

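The MMP gene cluster on chromosome 11 was examined in the chromatin contact maps of growing and RAS-induced senescent (RIS) fibroblasts. Its 9 members, MMP7, MMP20, MMP27, MMP8, MMP10, MMP1, MMP3, MMP12 and MMP13, were chosen by position, as the matrix metalloproteinase genes that lie side by side there, out of 20098 protein-coding genes of chromosomes 1 to 22 and X. IMR90 cells, a human lung fibroblast line, all carried ER:HRAS(G12V), an oncogenic RAS fused to an oestrogen receptor domain that tamoxifen switches on. Growing cells were not given tamoxifen, and RIS cells had 100 nM 4-hydroxytamoxifen for 6 days. Hi-C was available for 3 growing and 2 RIS libraries, and capture Hi-C (cHi-C) for 2 growing and 2 RIS libraries. Values of a group are given in the order of its replicate numbers throughout. Growing Hi-C replicate 3 also held an MSCV vector, and the labels state neither separate infections nor separate cultures, so p-values measure the spread between these libraries. The study describes its cHi-C as matching its Hi-C, so both may share material and are not independent samples.

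Matrix metalloproteinases are secreted enzymes that cut collagens, proteoglycans and other parts of the extracellular matrix, and several of them are part of the secretory program of senescent fibroblasts. MMP1, MMP8 and MMP13 are the collagenases of the cluster, MMP3 and MMP10 are stromelysins, MMP7 is a matrilysin, MMP12 is the macrophage metalloelastase, MMP20 acts in tooth enamel, and MMP27 is little studied. In Hi-C, nuclear DNA is cut and religated so that DNA ends lying close together are joined, and the number of joined ends from 2 places gives their contact. Contacts of a gene can be confined by domain borders, many of which are held by the DNA-binding protein CTCF and the cohesin ring.

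All 9 genes are on the minus strand (hg19, GENCODE 44). From the lower to the higher coordinate, they are MMP7 (chr11:102391239-102401481), MMP20 (chr11:102447563-102496063), MMP27 (chr11:102562218-102576500), MMP8 (chr11:102582527-102597781), MMP10 (chr11:102641233-102651359), MMP1 (chr11:102660132-102668891), MMP3 (chr11:102706532-102714340), MMP12 (chr11:102733467-102745712) and MMP13 (chr11:102813724-102826461). Start sites of neighbours are between 17.5 kb (MMP10 to MMP1) and 94.6 kb (MMP7 to MMP20) apart. Below MMP7 lie YAP1, BIRC3, BIRC2 and TMEM123, and above MMP13 lie DCUN1D5, DYNC2H1 and PDGFD.

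Members of this family are known targets of AP-1, a transcription factor. Its element was taken as TGANTCA, a loose form with any base at N. It was searched on both strands of the RefSeq promoters (GRCh38.p14, from 250 bases before to 50 bases after the start). Of the 5 members with an entry, MMP7, MMP20 and MMP10 held it, and MMP27 and MMP8 held no match in this window. MMP1, MMP3, MMP12 and MMP13 had no entry in the promoter set used, so they were not searched. The element occurred in 7.71% of all 35116 promoters. The 3 matches are given on the gene's strand with the element in capitals. At N, MMP7 has G, while MMP10 and MMP20 have A and would be missed by a search with only C or G there. It starts 67 bases before the start site in MMP7 (chr11:102530796-102530825) and MMP10 (chr11:102780677-102780706), and 112 bases before it in MMP20 (chr11:102625426-102625455).
MMP7: aaacactcaaaTGAGTCAcctatttccaca
MMP10: aaacacatgcaTGAATCAtactgttggtga
MMP20: tgtttgagacaTGAATCAtccttgctcgga

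The core of the CTCF consensus, whose letters appear in capitals in the matches given here, was searched on both strands of the captured region, which held a border and distal contact peaks. It matched 6 times, in 6 of 63 bins (9.52%), against 8.84% of 13105 bins of chromosome 11. A match to these letters is not a measured binding site, and the study's CTCF and cohesin ChIP-seq was not used here. From it the study reports a new cohesin peak in RIS at the 3′ end of MMP1, without CTCF binding. The match at chr11:102681867-102681896, on the plus strand in an intron of the pseudogene WTAPP1, lies between MMP1 and MMP3, in a bin that takes part in 4 of the 10 strongest distal contacts described further on. The match at chr11:102811882-102811911, on the minus strand, lies between MMP12 and MMP13 in no gene of the annotation. Both are given on their own strand (hg19) with the searched letters in capitals.
Between MMP1 and MMP3: tccaaaactCCAGTAGGTGGCagaatggaa
Between MMP12 and MMP13: acaatacttCCACTAGGTGGCaccagcaac

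The cHi-C region covers chr11:102360001-102990000 in 10 kb bins, 1 of 61 distinct captured regions (the list of regions holds 1 of them a second time), and its bin at 102870001 was left out because RIS replicate 1 had no values there. This gave 1891 pairs of different bins. The 2 growing libraries held 2062339 and 1790427 recovered contacts inside the region, the 2 RIS libraries 1235365 and 801657, and the part of this lower depth in the results was not tested. The median pair had 417, 347, 221 and 140 contacts in the same order. In Hi-C, 40 kb bins from 101480001 to 104000000 were used, and the region held between 58329 (RIS replicate 1) and 96272 (growing replicate 2) contacts, with a median of 7 to 11 per pair.

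In RIS, the cluster was divided at MMP1. Contacts between the genes below it (MMP7, MMP20, MMP27, MMP8, MMP10) and those above it (MMP3, MMP12, MMP13) were lower than in growing cells, and the insulation score, which is the log2 mean contact between the 100 kb on either side of a position and is low at a border, fell at both ends of the MMP1 promoter bin. At position 102670000, 1.1 kb above the MMP1 start site, it was 0.04 and 0.05 in growing cells against -0.40 and -0.35 in RIS. At 102660000, just below its 3′ end, it was 0.19 and 0.21 in growing cells against -0.27 and -0.18 in RIS. At neither position did the groups overlap.

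By limma the score fell by 0.42 ± 0.03 (SE, n = 2 and 2) at 102670000, with an adjusted p of 0.00074, and by 0.42 ± 0.03 at 102660000, with an adjusted p of 0.00093. With each library left out in turn, both stayed called, with limma adjusted p-values up to 0.016. Of 5051 bin edges tested in all captured regions, 23 (0.455%) fell as far as that at 102670000 and 22 (0.436%) as far as that at 102660000. The share of edges called in all regions was 44.5%, so a call alone sets no edge apart. The 2 edges share most of their bin pairs, and MMP1 was picked out after the values were seen, so these shares are a description.

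Inside the region, 15 of 44 edges were called, 4 higher (all edges 22.4%) and 11 lower (22.1%). The lower ones included all 8 edges from 102650000 to 102720000, which span MMP10, MMP1 and MMP3, and an edge at 102540000 between MMP20 and MMP27. With 50 kb on each side the edges at 102660000 and 102670000 stayed called, at -0.46 and -0.40 (adjusted p = 0.0032 for both), and so did 102700000, 102720000 and 102540000, but 102650000, 102680000, 102690000 and 102710000 did not (adjusted p from 0.055 to 0.64), with 102680000 at -0.03. The 4 edges from 102610000 to 102640000, below MMP10, were then called higher, by 0.14 to 0.19. At 102540000 the main score was -0.21 and -0.16 in growing cells and -0.31 and -0.34 in RIS, with a limma adjusted p of 0.0086 that became 0.076 without growing replicate 2. The edge at 102540000 was the lowest of the cluster in both growing libraries. In both RIS libraries the lowest edge was that at 102670000, and 102540000 came next. The number of edges called in the region was 9 without growing replicate 1, 5 without growing replicate 2 and 9 without RIS replicate 1, where 1 library of a group that is left is taken to vary like the others.

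**Figure D1:**
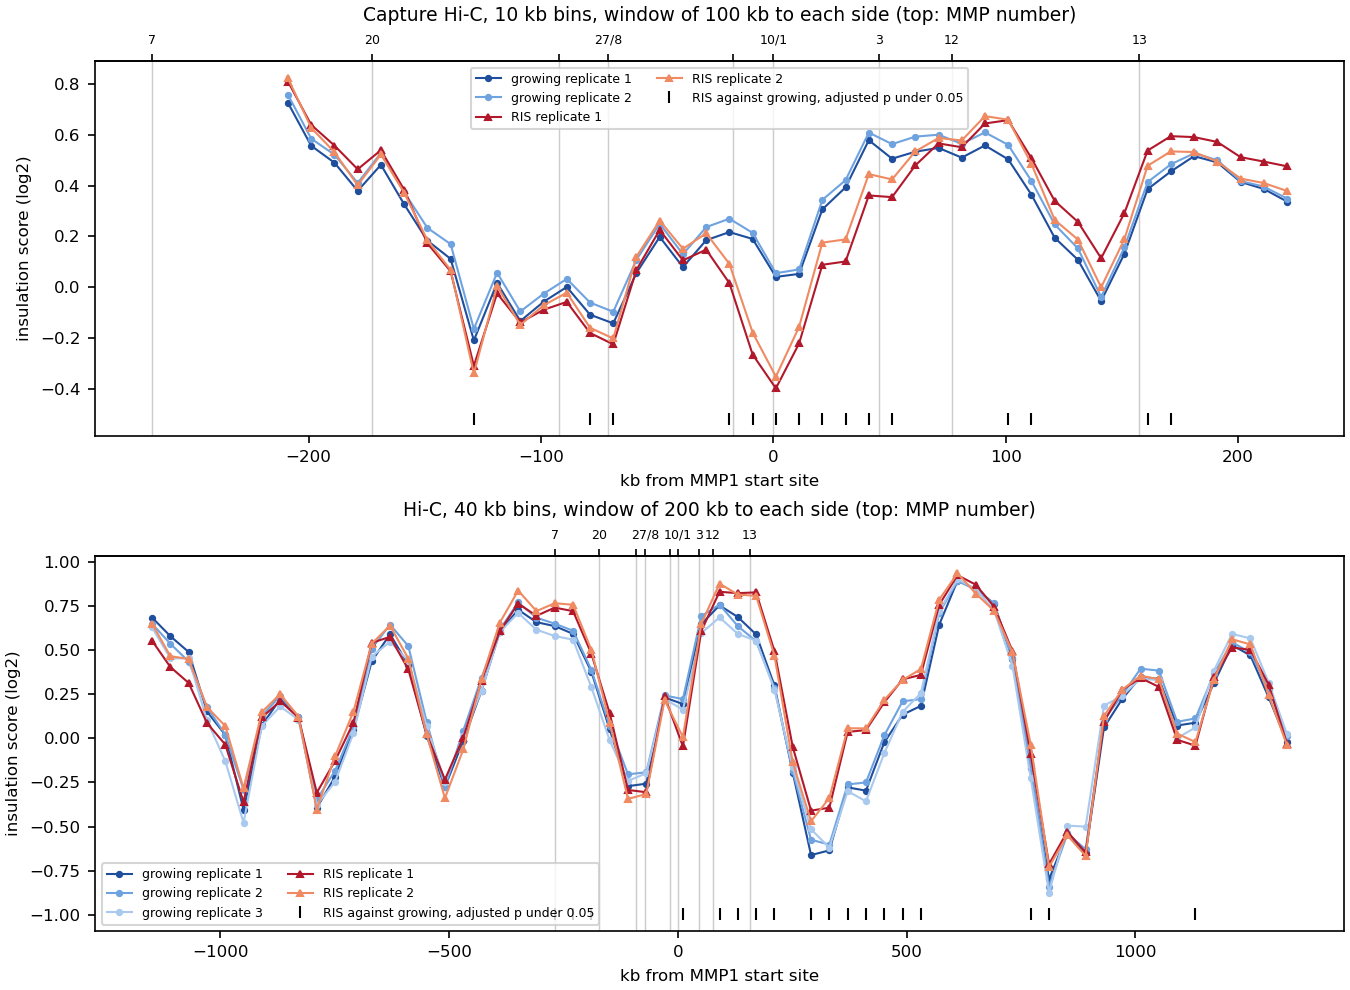
Insulation score (log2, y axis) along the MMP cluster by distance from the MMP1 start site (kb, x axis), for each cHi-C library (top) and each Hi-C library (bottom), with black ticks at edges called by limma. In cHi-C the 2 RIS lines dip to -0.40 and -0.35 at MMP1, where the growing lines stay at 0.04 and 0.05, and in Hi-C the RIS lines run above the growing lines to the right of MMP13.

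Hi-C libraries, made without capture, gave the same direction at this place on a coarser scale. With 200 kb on each side, the score at 102680000, the 40 kb edge nearest to the MMP1 start site, was 0.19, 0.22 and 0.16 in growing cells against -0.05 and 0.01 in RIS. It fell by 0.21 ± 0.04 (SE, n = 3 and 2), with a limma adjusted p of 0.0021 and no overlap between groups. The call held with each library left out in turn, with adjusted p-values up to 0.025. With 520 kb on each side the difference was -0.01 with a limma adjusted p of 0.744. Among all 68818 edges, 13.5% fell as far or farther. The lowest Hi-C edge of the cluster did not move to MMP1. It was that at 102560000 in all 3 growing libraries (-0.27, -0.20 and -0.24) and in RIS replicate 2 (-0.34), and that at 102600000 in RIS replicate 1 (-0.31).

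The contact map shows the division in single pairs of bins. The cHi-C insulation score is a mean over such pairs, so pairs, promoter pairs, windows and blocks in cHi-C are not observations separate from it. Observed/expected values, here on a log2 scale, compare each pair with the mean of all captured pairs at its distance in the same library. The limma fit on balanced values called none of the 1891 pairs (0.0334% of 329357 pairs in all regions, 0.0197% higher and 0.0137% lower), and 352 had an unadjusted p under 0.05, 53 higher and 299 lower in RIS (14.6% of all pairs had such a p). The voom fit on whole contacts recovered from the balanced values called 490, 135 higher (6.83% of all pairs) and 355 lower (5.85%), and with single libraries left out 187 (growing replicate 1), 185 (growing replicate 2), 369 (RIS replicate 1) and 490 (RIS replicate 2). Groups did not overlap in 379 pairs that were higher and 851 that were lower in RIS, against 51.0% of all pairs in either direction. By the share of its pairs called by voom, 25.9%, the region was number 8 of 61. Of its calls 72.4% were lower, against a median of 32.8% over the regions, and 9 regions had a larger share.

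Pairs were then split by the MMP1 promoter bin, a place chosen after the values were seen, so the following counts are a description. Of 480 pairs that joined a bin below it with a bin above it up to MMP13, voom called 273 lower and 0 higher, and the groups did not overlap in 439 lower and 1 higher pair. Their median log2 fold change by limma was -0.46. Leaving out 1 library at a time, voom called between 106 and 225 of them lower. Of 450 pairs that crossed MMP1 to reach beyond MMP13, voom called 12 higher and 25 lower, with a median of -0.05 by limma. Of 435 pairs with both bins below MMP1, 34 were called higher and 11 lower, and of 465 with both bins above it, 89 higher and 17 lower. Over all captured pairs 6.83% were called higher and 5.85% lower, so in this fit the 34 higher pairs are near that share and the 11 and 17 lower ones are below it. The lower counts at these other places also moved with single libraries left out.

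**Figure D2:**
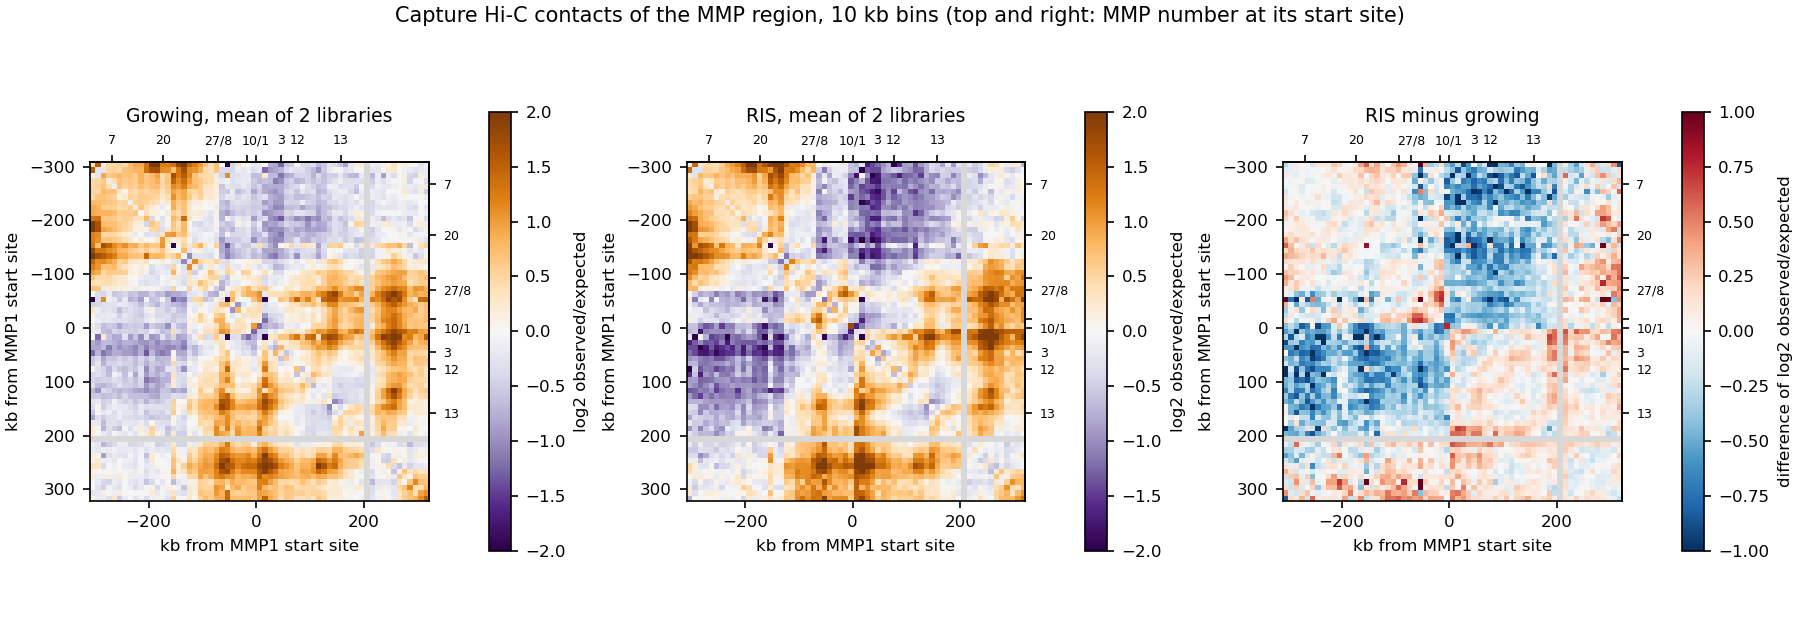
Contact maps of the captured MMP region in 10 kb bins, as log2 observed/expected in growing (left) and RIS (middle), each the mean of 2 libraries, and their difference (right), with both axes in kb from the MMP1 start site and MMP numbers at the start sites. Blue in the right map marks pairs that were lower in RIS. It fills the square between bins below and bins above MMP1, whose 480 pairs up to MMP13 had a median limma log2 fold change of -0.46. Grey marks the bin without values.

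Among the 36 pairs of member promoters, the level of contact (mean log2 observed/expected of all 4 libraries) ran from -1.33 (MMP20 with MMP3) to 1.02 (MMP8 with MMP10). No pair was called by limma, with adjusted p-values of at least 0.26, and 13 had an unadjusted p under 0.05, of which 12 were lower in RIS. By voom 20 were called, 1 higher and 19 lower, where 12.7% of all captured pairs were called. The median log2 fold change by voom was -0.37 over the 36 pairs and -0.06 over all pairs of the region. Counts depended on single libraries, since voom called 5 pairs without growing replicate 1, 5 without growing replicate 2, 12 without RIS replicate 1 and 14 without RIS replicate 2.

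The pair of MMP10 and MMP1, a stromelysin and a collagenase in adjacent bins, had 4308 and 4417 scaled balanced contacts in growing cells against 2757 and 3012 in RIS. The groups lay far apart compared with the spread within each. Its log2 fold change was -0.68 ± 0.10 (SE) by limma (adjusted p = 0.26) and -0.84 ± 0.07 by voom (adjusted p = 4.3e-13), and voom called it with each library left out. MMP10 with MMP13, 170 kb apart, had 419 and 406 scaled contacts in growing cells and 304.8 and 299.5 in RIS. It was the other pair that voom called with each library left out, at -0.61 ± 0.09 (adjusted p = 1.6e-06).

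In the opposite direction, MMP10 gained contact with MMP8, a neutrophil collagenase on its lower side. This pair had 1064 and 1156 scaled contacts in growing cells and 1539 and 1502 in RIS, without overlap. The log2 fold change was 0.41 ± 0.11 by limma (adjusted p = 0.30) and 0.36 ± 0.07 by voom (adjusted p = 0.00016), and voom called it in 3 of 4 fits with a library left out. MMP10 with MMP27 had 584 and 601 scaled contacts in growing cells and 664 and 746 in RIS, which voom did not call (adjusted p = 0.32).

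The pairs with the largest fall by limma joined MMP7, at the lower end of the cluster, with genes above MMP10. MMP7 and MMP12 had 101.99 and 97.1 scaled contacts in growing cells against 60.1 and 46.8 in RIS, with a log2 fold change of -0.80 ± 0.14 by limma and a voom adjusted p of 0.034. MMP7 and MMP3 had 77.6 and 88.9 against 50.2 and 40.3, with -0.78 ± 0.14 by limma and a voom adjusted p of 0.0060. In both pairs each RIS library was below each growing library. MMP7 with MMP12 lost its voom call with any 1 library left out (adjusted p between 0.13 and 0.21), and MMP7 with MMP3 lost it without growing replicate 2 (0.12).

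Promoter pairs on the same side of MMP1 had a median log2 fold change by limma of 0.06 below it (10 pairs) and -0.01 above it (3 pairs). MMP3 and MMP12, 30 kb apart, had 1189 and 1235 scaled contacts in growing cells and 1182 and 1382 in RIS. MMP27 and MMP8 had 2613 and 2647 against 2883 and 2811, without overlap, and MMP7 and MMP20 had 617 and 637 against 690 and 633. Their log2 fold changes by limma were 0.04 ± 0.13, 0.05 ± 0.10 and 0.08 ± 0.10, with voom adjusted p-values of 0.94, 0.63 and 0.36. By the same split at MMP1, chosen after the values were seen, the groups did not overlap in any of the 15 promoter pairs across it. All 15 were lower in RIS, and voom called 13, fewer with any 1 library left out. Over all captured pairs, 51.0% had no overlap in either direction and 5.85% were called lower. Of the 10 pairs below MMP1, voom called 1, MMP8 with MMP10, and 3 were higher and 1 lower in RIS without overlap. Of the 3 above it, voom called 0, and 1 was lower without overlap.

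**Figure D3:**
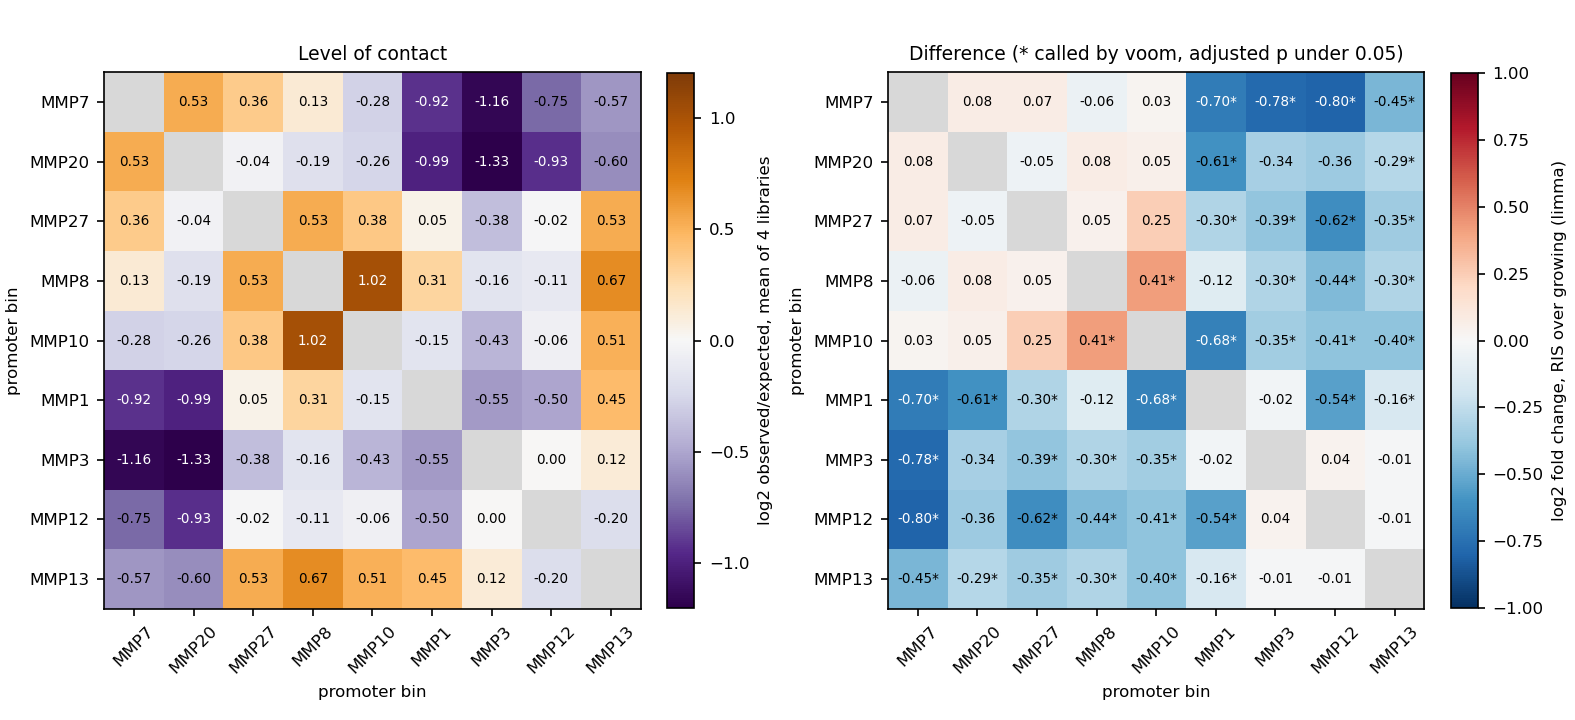
Contacts between the 9 member promoter bins in cHi-C, with the mean log2 observed/expected of 4 libraries (left) and the limma log2 fold change of RIS over growing (right), where an asterisk marks pairs called by voom. Blue cells with an asterisk join genes on opposite sides of MMP1 or MMP1 itself, and the 1 called red cell is MMP8 with MMP10, at 0.41.

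Counts of partners called by voom are to be read against the 6.83% called higher and 5.85% called lower over all captured pairs. They also moved with single libraries left out. For MMP7, MMP8, MMP1, MMP3, MMP12 and MMP13, each such fit called fewer partners. Taking the collagenases first, the MMP1 promoter bin was called lower by voom with 29 of 61 partners and higher with 0. Its most reduced partner was the bin at 102420001, 240 kb away between MMP7 and MMP20, with 125.1 and 119 scaled contacts in growing cells and 61.35 and 59.97 in RIS (voom log2 fold change -1.15 ± 0.23, adjusted p = 0.00022). MMP1 also had fewer recovered contacts in all. Relative to the contacts of the region, its bin had less in both RIS libraries than in both growing libraries, with a log2 ratio of -0.49, which was the lowest of the 62 bins, and 6 of 5108 bins in all captured regions (0.117%) were as low. Balancing evens out such totals, so voom values at MMP1 are lower than limma values, and the part of this coverage in the voom calls was not tested.

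MMP8 had 5 partners called higher and 14 lower. Its largest called gain, with the bin at 102610001, was 0.59 ± 0.18 by voom but 0.04 ± 0.10 by limma on balanced values. A higher voom call therefore need not be a gain in balanced contact. The lowest was the bin at 102730001, beside the MMP12 promoter, with 363 and 365 scaled contacts in growing cells and 269 and 277 in RIS (voom adjusted p = 4.5e-06), called with each library left out. MMP13 had 2 called higher, both on its higher-coordinate side, and 26 lower, all on its lower-coordinate side, where 46 were tested. Of the lower ones, 9 were among the 11 bins of MMP7 to MMP20 and 4 were the bins of MMP27 to MMP8.

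Of the stromelysins, MMP10 showed a gain on one side and a loss on the other. Among 29 partners on its lower-coordinate side, voom called 5 higher and 1 lower, and among 32 on its higher-coordinate side 0 higher and 18 lower. The largest gain was with the bin at 102610001, 40 kb away between MMP8 and MMP10, with 703 and 1065 scaled contacts in growing cells and 1410 and 1622 in RIS (voom 1.25 ± 0.23, adjusted p = 6.7e-05). It rests on 61 and 80 recovered contacts in growing cells and 77 and 98 in RIS. By limma on balanced values it was 0.77 ± 0.27 (adjusted p = 0.35), and the part of bin coverage in the larger voom value was not tested. Voom called it with each library left out, at 0.91 without growing replicate 1, 1.55 without growing replicate 2, 1.83 without RIS replicate 1 and 0.82 without RIS replicate 2.

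MMP3, on the other side of MMP1, had the reverse. Voom called 0 of 35 partners higher and 23 lower on its lower-coordinate side, and 4 of 26 higher and 2 lower on its higher-coordinate side. Its largest gain was with the bin at 102860001 in the right flank, 150 kb away, with 346 and 332 scaled contacts in growing cells and 516 and 426 in RIS (voom 0.72 ± 0.11, adjusted p = 3.4e-06), called with each library left out. Its largest fall was with the bin at 102510001, between MMP20 and MMP27, with 163 and 266 scaled contacts against 53.9 and 96.9 (voom -1.45 ± 0.43, adjusted p = 0.018). It rests on 7 and 9 recovered contacts in RIS. Voom did not call it without growing replicate 2 (-1.17, adjusted p = 0.21) or without RIS replicate 1 (-0.84, adjusted p = 0.43), and limma gave -1.42 ± 0.47 (adjusted p = 0.34).

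For the remaining members, calls by voom were 0 higher and 13 lower for MMP7, 1 and 12 for MMP20, 2 and 13 for MMP27, and 2 and 13 for MMP12, each of 61 partners. In this fit their higher counts lie below the share over all pairs and their lower counts above it, and the counts moved with single libraries left out. All partners called lower for MMP7 and MMP20 lay at the MMP1 promoter bin or above it, and 7 and 6 of them were among the 11 bins from MMP10 to MMP12. MMP12 had 13 called lower among 38 partners on its lower-coordinate side, and 1 higher and 0 lower among 23 on the other.

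**Figure D4:**
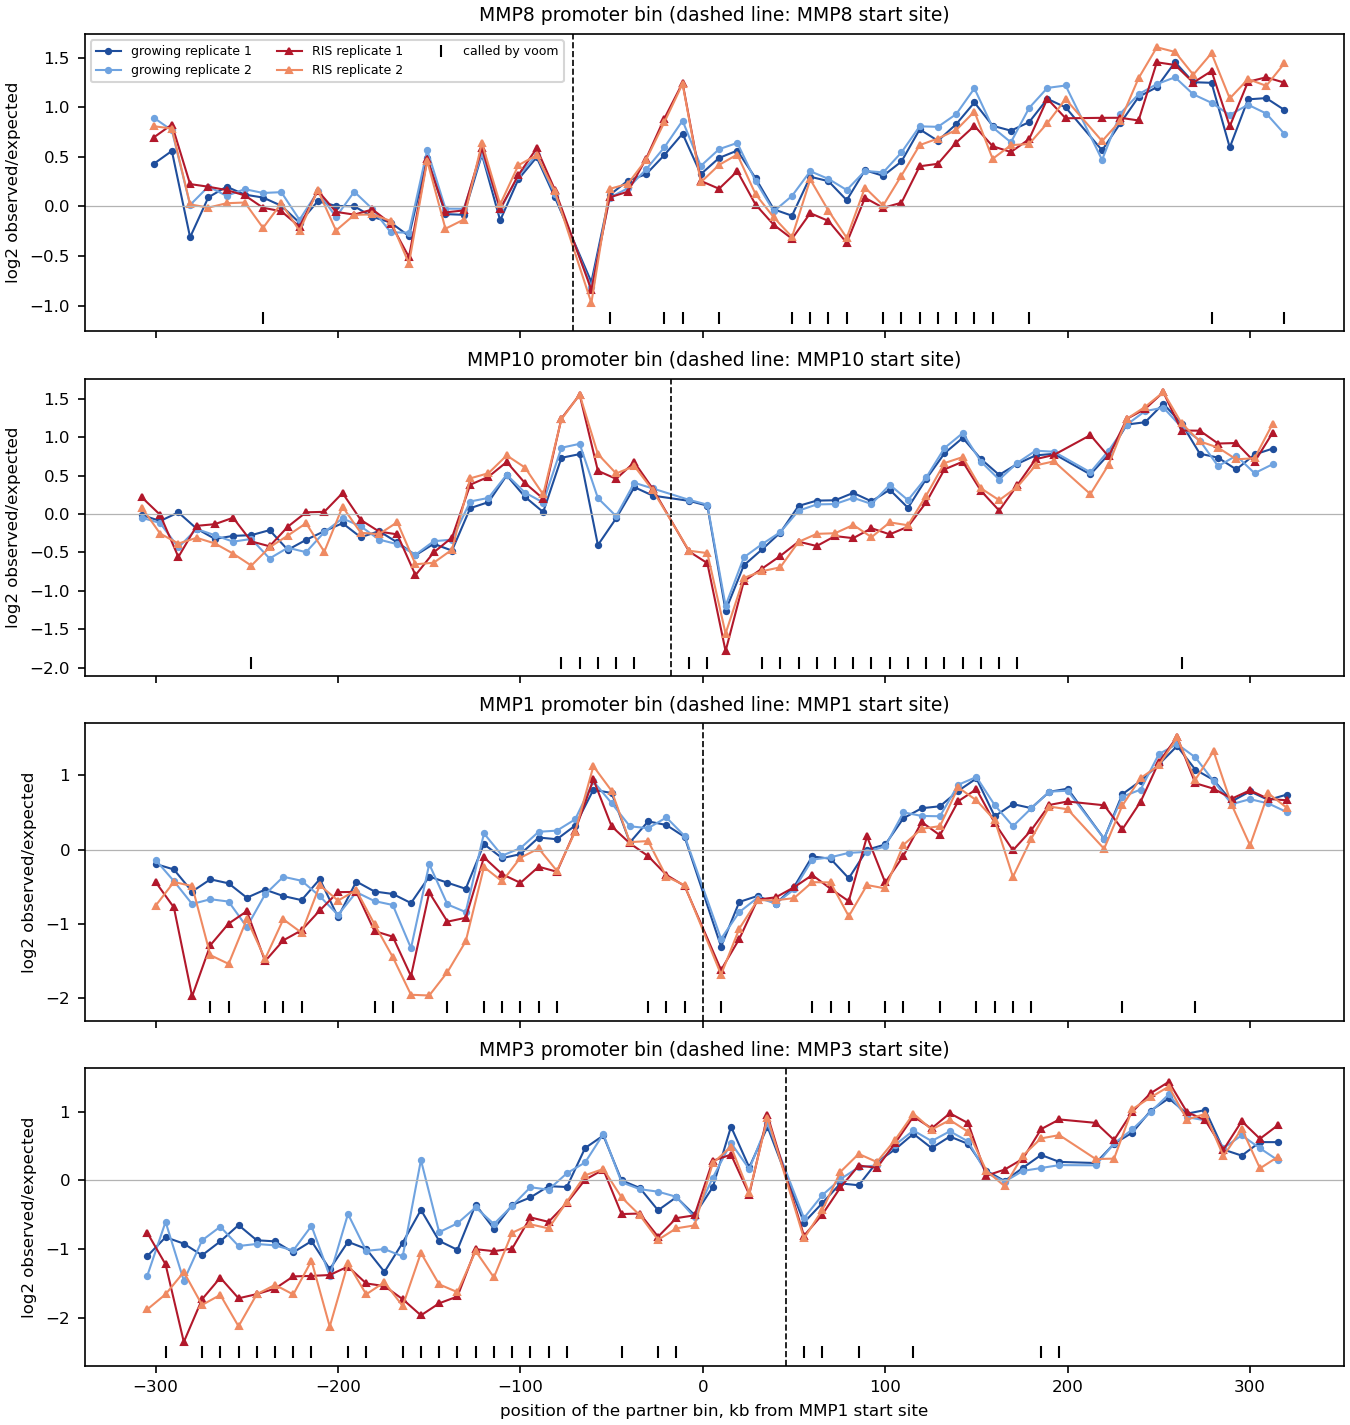
Contact of the MMP8, MMP10, MMP1 and MMP3 promoter bins (dashed lines) with each other bin of the region, as log2 observed/expected (y axis) in each cHi-C library by position of the partner in kb from the MMP1 start site (x axis), with ticks at partners called by voom. The RIS lines of MMP10 lie above the growing lines near MMP8 and below them past MMP1, and those of MMP3 lie below to the left of MMP1.

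Sums over many bins gave smaller errors than single pairs. For each promoter, the mean observed/expected contact with the bins 20 to 200 kb away was taken on each side, and limma was fitted on all 1467 such windows of captured promoters, of which 22.3% were called. Of the 17 member windows 8 were called, 2 higher (all windows 11.9%) and 6 lower (10.4%), with adjusted p-values between 0.013 and 0.036. Leaving out growing replicate 1 or growing replicate 2 left 0 member windows and 0 of the 1467 called. Without RIS replicate 1, 6 member windows and 249 of all were called, and without RIS replicate 2, 8 and 274. The cause of this difference was not tested.

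MMP12 fell most on its lower-coordinate side, from 0.35 and 0.36 in growing cells to -0.12 and -0.02 in RIS (log2 observed/expected, -0.43 ± 0.05, SE). On its lower side MMP3 fell from -0.10 and -0.05 to -0.50 and -0.47 (-0.41 ± 0.04), and rose on its higher side from 0.37 and 0.39 to 0.60 and 0.54 (0.19 ± 0.04). Both genes lie above MMP1, so for both the fall was on the side that faces it. The MMP12 fall was not called in the window of 20 to 100 kb (-0.17, adjusted p = 0.067) or with medians (-0.36, adjusted p = 0.089). The rise of MMP3 lost its call without RIS replicate 1 (adjusted p = 0.077), at 20 to 100 kb (0.15, adjusted p = 0.070) and with medians (0.31, adjusted p = 0.089), and with recovered contacts it was 0.13 (0.13) where the median of all windows rose by 0.16, so relative to all windows its direction turned.

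Below MMP1, MMP10 rose on its lower side from 0.02 and 0.10 to 0.37 and 0.37 (0.30 ± 0.04) and fell on its higher side from 0.28 and 0.30 to -0.08 and -0.04 (-0.35 ± 0.04). With recovered contacts the rise was 0.21 (adjusted p = 0.037), where the median of all windows rose by 0.16. MMP27 fell on its higher side, from 0.08 and 0.11 to -0.14 and -0.10 (-0.21 ± 0.04). In the nearer window of 20 to 100 kb the MMP27 difference was -0.03 (limma adjusted p = 0.68), and its call was also lost without RIS replicate 1 (0.061). MMP1 itself fell on both sides, by 0.27 ± 0.04 on the lower and by 0.26 ± 0.04 on the higher one. The first was not called at 20 to 100 kb (-0.21, adjusted p = 0.094), nor the second with medians (-0.56, adjusted p = 0.067). In each of these windows all RIS libraries were on one side of all growing libraries. The 9 windows not called, with limma adjusted p-values from 0.067 to 0.76, were the only MMP7 window and the windows of MMP20, MMP8 and MMP13 on both sides, MMP27 on the lower side and MMP12 on the higher side.

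**Figure D5:**
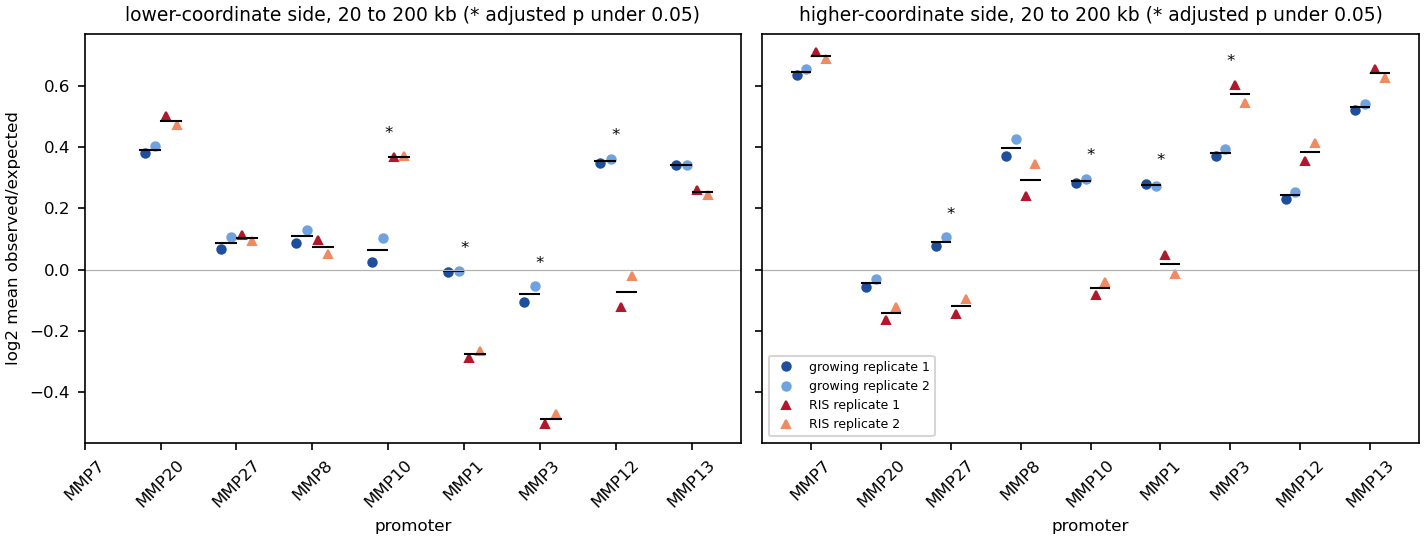
Mean contact of each member promoter with the bins 20 to 200 kb away on its lower-coordinate (left) and higher-coordinate side (right), as log2 observed/expected, with points for the 2 growing (circles) and 2 RIS libraries (triangles), bars at the group means and asterisks at windows called by limma. MMP10 moved up on the left and down on the right, and MMP3 the reverse. MMP7 had too few bins on its lower side.

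By groups of genes, contacts of MMP7 to MMP20 with MMP10 to MMP12 were -0.59 and -0.59 in growing cells against -0.88 and -1.001 in RIS (log2 observed/expected over 121 pairs), and those of MMP7 to MMP20 with MMP13 were -0.33 and -0.25 against -0.78 and -0.76. MMP10 to MMP12 with MMP13 had 0.75 and 0.76 against 0.78 and 0.76, where the groups overlapped. That block spans MMP1, and of the 2 MMP13 bins voom called 2 lower for the MMP10 and MMP1 promoter bins. For those of MMP3 and MMP12 it called 0. Over the whole cluster, the mean was 0.10 and 0.14 in growing cells and -0.06 and -0.04 in RIS, a difference of -0.16. With 2 libraries in each group, the two-sided exact permutation test cannot give a p under 0.33, which these values had except where groups overlapped. Groups did not overlap in 16 of the 23 block values, against 51.0% of all captured pairs taken singly. Block values share bins, so they are not separate observations, and blocks of other regions were not computed.

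Contacts of the cluster with the flank above MMP13 had a higher mean in RIS, though not in all its parts. With the bins from 102830001 to 102990000, which hold DCUN1D5 and the start of DYNC2H1, the cluster had 0.52 and 0.52 in growing cells and 0.63 and 0.60 in RIS (log2 observed/expected over 660 pairs, exact p = 0.33). MMP10 to MMP12 had 0.86 and 0.86 against 1.06 and 1.03. Of the 165 pairs between MMP10 to MMP12 and this flank, voom called 28 higher and 8 lower, where 6.83% of all captured pairs were called higher and 5.85% lower. This block spans MMP1, and its promoter bins differed. Of 15 flank partners each, voom called 0 higher and 3 lower for MMP10 and 0 and 4 for MMP1. For MMP3 it called 2 higher and 0 lower, and for MMP12 0 and 0. MMP7 to MMP20 had -0.15 and -0.14 in growing cells against -0.14 and -0.24 in RIS, which overlapped. Of its 165 pairs with this flank 1 was called higher and 11 lower, and the 11 are near the share of all captured pairs. The difference between these blocks was not tested. For MMP10 to MMP12 and for the whole cluster, libraries of a group lay closer together than the groups.

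The strongest distal contacts, ranked over the libraries of both conditions, were high in growing cells too. Of the 10 pairs at least 50 kb apart with the highest mean log2 observed/expected over all 4 libraries (1.99 to 2.56), 7 joined the stretch from 102600001 to 102690000 with bins between 102900001 and 102940000 in the right flank, and 3 started at 102360001 below MMP7. None of the 10 held a member promoter. Each of the 7 with the right flank had a higher mean in RIS. The bins at 102670001 and 102920001 met at 1.93 and 1.76 in growing cells against 2.27 and 2.34 in RIS (limma 0.35 ± 0.12, adjusted p = 0.35). The bin at 102680001, which holds the CTCF motif match between MMP1 and MMP3, met that at 102920001 at 2.27 and 2.21 in growing cells against 2.34 and 2.36 in RIS. Voom did not call this pair (-0.01 ± 0.17, adjusted p = 0.99). The 1 pair of the 10 that voom called joined 102360001 with 102530001, at 2.35 and 2.39 against 2.66 and 2.83 (voom 0.47 ± 0.13, adjusted p = 0.011), and the call was lost without growing replicate 1 (adjusted p = 0.23) and without growing replicate 2 (0.15). Limma called none of the 10.

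Hi-C at 40 kb covered the same promoters in fewer bins, since MMP10 shared a bin with MMP1 and MMP27 with MMP8, which left 21 distinct promoter pairs. Limma called 0, with 3 at an unadjusted p under 0.05, and 15 had a negative log2 fold change (median -0.07). Voom called 1, MMP7 with MMP13 at the ends of the cluster, where 1.28% of all 1958645 pairs were called. This pair had 26.1, 24.5 and 19.6 scaled contacts in growing cells against 9.19 and 7.69 in RIS. Its log2 fold change was -1.25 ± 0.20 by limma (adjusted p = 0.37) and -1.46 by voom (adjusted p = 0.0033), and voom called 0 promoter pairs without RIS replicate 1 and 0 without RIS replicate 2. MMP20 with MMP12 and MMP20 with MMP13 were the other pairs with an unadjusted p under 0.05, at -0.51 ± 0.16 and -0.60 ± 0.19 by limma (adjusted p = 0.46 for both).

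Over the wider region, limma called 0 of 1063 Hi-C pairs (0.04% of all pairs, 0.00812% higher and 0.0319% lower), with 75 at an unadjusted p under 0.05 (10.2% of all pairs), 44 of them higher, and voom called 9, 5 higher (0.867%) and 4 lower (0.417%). Hi-C windows from 80 to 1000 kb around the members gave 0 limma calls (8.44% of 38094 windows were called, 3.34% higher and 5.09% lower), and 4 of 14 distinct windows had an unadjusted p under 0.05. The bin of MMP27 and MMP8 had the lowest adjusted p of them, 0.066, where its higher-coordinate window went from -0.07, -0.15 and -0.16 in growing cells to 0.14 and 0.13 in RIS. This difference of 0.26 was 0.07 from 80 to 400 kb (limma adjusted p = 0.57). In cHi-C, from 20 to 200 kb, the MMP27 window on this side went the other way, at -0.21. The neighbours DCUN1D5, a cullin neddylation factor, and DYNC2H1, a ciliary dynein, share a bin whose lower-coordinate window, which looks back over the cluster, went from -0.31, -0.36 and -0.31 to 0.15 and 0.00 (0.40 ± 0.08, limma adjusted p = 0.033). That call was lost with each library left out (adjusted p between 0.063 and 0.105).

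The right side of the cluster also became less insulated in Hi-C. Of 63 edges between 101520000 and 104000000, 18 were called by limma (43.1% of all edges), 16 higher (17.7%) and 2 lower (25.3%), and 11 of the higher ones followed each other, with a gap at 102920000, from 102760000 to 103200000. At 102840000, just above MMP13, the score was 0.59, 0.55 and 0.55 in growing cells and 0.83 and 0.81 in RIS (0.25 ± 0.04, adjusted p = 0.00065). The largest rise was at 103080000, within DYNC2H1, from -0.30, -0.25 and -0.36 to 0.05 and 0.06 (0.35 ± 0.04, adjusted p = 0.00031), and 0.571% of all edges rose as far. With each library left out both stayed called, with limma adjusted p-values up to 0.0087 and 0.0044. The edges at 102400000 (in MMP7), 102440000 (between MMP7 and MMP20) and 102480000 (in MMP20) were also higher, by 0.13 to 0.15. Fewer edges were called without RIS replicate 1 (11) and without RIS replicate 2 (9).

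In Hi-C, flanks on the 2 sides of the cluster had a higher mean contact in RIS, which was not so in cHi-C. The 638 pairs of 40 kb bins that joined them had a mean log2 observed/expected of -1.18, -1.17 and -1.11 in growing cells against -0.64 and -0.90 in RIS, a difference of 0.38 (two-sided exact permutation p = 0.1, the smallest 3 against 2 libraries allow, adjusted p = 0.24). The study's alignment summary shows many duplicate reads in growing replicate 3 and RIS replicate 2. Within the libraries with few duplicates the difference was 0.53, and within those with many it was 0.22. Inside the cluster the mean was 0.20, 0.23 and 0.17 against 0.15 and 0.16 (exact p = 0.2), and with the right flank -0.71, -0.81 and -0.72 against -0.58 and -0.71, where the groups overlapped. In cHi-C, whose flanks are shorter, the 45 pairs that joined the left and right flank went the other way. They had -0.14 and -0.09 in growing cells against -0.16 and -0.30 in RIS, without overlap (two-sided exact permutation p = 0.33).

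Each 40 kb bin of the cluster divides its balanced contacts between the surrounding 2 Mb, the rest of chromosome 11 and other chromosomes. The share beyond 2 Mb on the chromosome was lower in RIS in 9 of 12 cluster bins by limma (24.5% of all bins were called lower) and higher in 0 (10.3%). In the bin of MMP10 and MMP1 it was 17.8%, 18.2% and 21.3% in growing cells against 12.9% and 11.6% in RIS (limma adjusted p = 5.0e-05 on the logit scale). All 12 bins had a lower mean in RIS, by 0.19 to 0.86 on that scale, and without RIS replicate 2 the number of bins called fell to 3. The local share rose in 6 bins (12.3% of all bins) and fell in 0 (35.1%), and in the bin of MMP10 and MMP1 it was 71.2%, 69.9% and 68.5% against 75.3% and 76.4% (adjusted p = 0.00013). The number of bins with a higher local share was 2 without growing replicate 3 and 2 without RIS replicate 2. Contacts with other chromosomes rose in 9 of the 12 and fell in 0. Of all bins, 69.3% were called higher and 0.954% lower, so this rise was not particular to the cluster. The mean share of the 12 bins was 10.21%, 9.91% and 9.73% in growing cells against 11.62% and 11.63% in RIS. The median of all bins rose more, from 10.02%, 10.26% and 9.86% to 12.78% and 12.93%. The number of cluster bins called higher fell with single libraries left out, to 5 without growing replicate 2 and 5 without growing replicate 3.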

How the data were processed

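Hi-C (5 libraries) and cHi-C (4 libraries) of IMR90 ER:HRAS(G12V) cells were analysed. Per the labels and the study's reporting summary, the authors checked reads with FastQC (0.11.5) and mapped them to hg19 with HiC-Pro (2.10.0), and deposited 1 matrix a library, whose signal is the ICE-balanced number of contacts between bins of 40 kb (Hi-C) or 10 kb (cHi-C). Balancing gives bins equal sums, so coverage differences between bins are removed. Before testing, libraries were brought to a common depth, taken in cHi-C within captured regions.

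Pairs were tested with limma 3.58.1 (R 4.3.3) on log2 of the scaled value with a pseudocount of 0.5, after loess on abundance (span 0.3, 4 iterations), over all pairs with a mean of at least 5 (Hi-C up to 2 Mb), with Benjamini-Hochberg adjustment at 5%. Because fold changes are on this scale, those of low pairs are understated. Undoing the balancing, with 1 factor for each bin, gave back whole numbers (within 0.05 for counts up to 20) in 99.9% or more of such values, and limma's voom tested these as an alternative. Windows, insulation scores and logit shares were tested with limma over all promoters, edges or bins. Block values had a two-sided exact permutation test over libraries. The pair fits and the fits over edges were tested on simulated data with known changes. There voom called part of the changed pairs and the limma pair fit none, so a lack of limma calls on single pairs says little. The simulated contacts had no balancing and no coverage shifts of single bins, so they do not check voom calls at bins with such shifts. In the real data, limma called 110 of all cHi-C pairs and 784 of all Hi-C pairs.

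Expected values are means over pairs of the same distance and library. Promoters are GENCODE 44 (lifted to hg19) start sites. Named items were drawn from the 9 genes, their neighbours, all promoter pairs, each promoter's most changed called partners and the 10 strongest distal contacts, and the others of these are given by counts. Members, lists and tests were chosen with earlier results of these data known. Alternatives were other pseudocounts, minimum values (10 and none), normalizations, windows, blocks and each library left out.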

Additional observations from a re-analysis of the deposited data

How the results depend on the processing

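The division at MMP1 kept its direction under every alternative run for the insulation scores at 102660000 and 102670000 (cHi-C) and 102680000 (Hi-C), but with 520 kb on each side the last shrank from -0.21 to -0.01 and was no longer called. Calls of single pairs depended on the test, since limma called 0 in each main fit. Under voom, 490 cHi-C pairs of the region were called, and 495 without loess, and 20 promoter pairs under both. In Hi-C voom called 9 pairs of the region and 11 without loess, 24 with the duplicate class as a block, and 1 promoter pair under each of these. Over the fits that left out 1 library, limma and voom together called 0 to 490 cHi-C pairs (voom 187, 185, 369 and 490), 0 to 14 cHi-C promoter pairs, 0 to 12 Hi-C pairs and 0 to 2 Hi-C promoter pairs. The cause was not tested. Replicate numbers are shared by the labels. Deviations of same-numbered libraries correlated at 0.01 over all cHi-C pairs, at -0.44 over those of the region and within 0.01 of 0 over Hi-C pairs. Such correlations cannot show whether same-numbered libraries were prepared together, so results with replicate number as a block are also given. With replicate number as a block, voom called 426 cHi-C pairs, 19 promoter pairs, 13 Hi-C pairs and 2 Hi-C promoter pairs. By limma, 23 cHi-C edges were called in place of 15, and the local share was higher in 2 bins in place of 6. The lower distal share then lost its call in the bins at 102360001 (limma adjusted p = 0.17), 102560001 (0.0502) and 102720001 (0.079). With the pairing crossed in cHi-C, chosen after the data were seen, voom called 476 pairs and 20 promoter pairs, and limma 3 promoter windows. Of the promoter windows in cHi-C, 5 were called with medians, 4 with windows of 20 to 100 kb, and 0 to 8 with 1 library left out, where 8 were called in the main fit. Leaving out 1 library gave 5 to 20 called cHi-C edges, 9 to 14 Hi-C edges, and 3 to 11 bins with a lower distal, 2 to 7 with a higher local and 3 to 8 with a higher trans share. The contact of the left flank with the cluster in Hi-C, 0.04 higher in RIS, turned to -0.0033 without RIS replicate 1 (0.0807 without RIS replicate 2) and to -0.0060 within the libraries with many duplicates. Over the main values and counts of the comparisons, 160 alternatives gave the same outcome, 32 a stronger, 18 a weaker and 2 a reversed one, with those that changed given above by value or range. In this tally a count was the same if it lay near the main count, also where both were 0. A value that is no count, such as a block contact, was the same if its sign held. The tally is therefore a description and not a check. A tally was also made over the 20 promoter pairs that voom called, the 8 cHi-C windows that limma called, and single edges. These edges were 102660000 and 102670000 in cHi-C, and 102680000, 102840000 and 103080000 in Hi-C. In it, 341 alternatives gave the same call as the main limma fit, 114 gained a call, 32 lost one and 0 reversed. The pairs were chosen by a voom call, and pairs and windows that were not called were left out, so these counts are a description and not a check. Hi-C pairs of the region had a median of 7 to 11 contacts, and the part of this depth in the number of calls was not tested.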

Other observations

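The first component of the distance-corrected Hi-C correlation matrix of chromosome 11 in 120 kb bins was positive over the cluster in all 5 libraries, at 1.22, 1.15 and 1.05 in growing cells against 1.06 and 1.02 in RIS (in SDs of the component, two-sided exact permutation p = 0.3). Its sign was set by gene density, with which it correlated at no more than 0.23 across bins in size, so the naming of the A or B side is weak here.

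Of 783 promoters outside the region, those whose mean window contact varied over the 4 cHi-C libraries most like the mean of the members were CCNI2, COL8A1 and TNNI2, with Euclidean distances of 0.011, 0.016 and 0.018 on the centred log2 scale. With 4 libraries, such a likeness is a description of these libraries.

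Left-flank bins below MMP7 (102360001 to 102390000) met the MMP27 to MMP8 block at 0.52 and 0.58 in growing cells against 0.82 and 0.74 in RIS (log2 observed/expected in cHi-C), while with MMP10 to MMP12 they went from -0.45 and -0.39 to -0.76 and -0.88. Neither set of groups overlapped, and the exact p was 0.33 for both.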
